A study of Mus musculus with 20 samples.

Results

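H3K4me1, a histone mark, was compared between the livers of double knockout (DKO) mice and of Cpt2 knockout (Cpt2 KO) mice, 2 livers a group. These are 4 of the 20 samples of the series. Cpt2 KO mice lacked Cpt2 in the liver (genotype Cpt2 L-/-). DKO mice lacked Cpt2 in the liver and also Ppara (genotype Cpt2 L-/- ; Ppara -/-), the latter with no restriction to the liver in the labels. The liver deletion of Cpt2 was therefore shared by both groups, and the comparison asked what the further loss of Ppara changed in a liver that already lacked Cpt2. Wild-type (WT) and Ppara KO (Ppara -/-) livers with intact Cpt2, 2 each, served for comparison. All mice were C57BL/6 males of 9 weeks, killed after a 24 h fast, and the assay was chromatin immunoprecipitation followed by sequencing (ChIP-seq) on frozen whole liver. The promoter that drives the liver deletion is not given in the sources used here, and the loss of Ppara in the DKO mice may extend to other cells and tissues than hepatocytes. Each library came as a list of peaks, each with a fold, which is a ratio of ChIP signal over the local background. Peaks were assigned to the 103014 consensus intervals that the authors merged from all H3K4me1 libraries. Of these intervals, 3735 were called in both DKO livers and in neither Cpt2 KO liver (3.63%), 2954 in both Cpt2 KO livers and in neither DKO liver (2.87%), and 24289 in all 4. The first 2 sets are called DKO-only and Cpt2 KO-only below. An interval that was not called has no fold, and its signal may lie just under the threshold of the peak caller.

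Monomethylation of lysine 4 of histone H3 marks enhancers, whether poised or active, and the flanks of promoters, and acetylation of lysine 27 (H3K27ac) marks those that are active. PPARα, the product of Ppara, is a nuclear receptor that binds DNA with RXR, is activated by fatty acids, and in the fasted liver drives the genes of fatty acid uptake, oxidation and ketone body synthesis. Cpt2 is the carnitine palmitoyltransferase of the inner mitochondrial membrane, without which long-chain fatty acids cannot be oxidised in mitochondria.

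Promoters that one-group intervals overlapped, in whole or in part, are shown first, since there the interval lies at the start of the gene it is named by. DKO-only intervals overlapped the 250 bases before the transcription start in 277 promoters of the RefSeq table (GRCm38.p6), and Cpt2 KO-only intervals in 115. The first pair below had the highest lower-of-2 fold among the DKO-only promoters, the second pair stood among the 3 highest of the Cpt2 KO-only promoters, and the last pair are Cpt2 KO-only promoters of genes of lipid storage and ketone bodies. Capitals mark AGGTCA on either strand, the half-site that nuclear receptors such as PPARα read.
Pde6h, chr6:136954273-136954522, plus strand, 250 bases before the start: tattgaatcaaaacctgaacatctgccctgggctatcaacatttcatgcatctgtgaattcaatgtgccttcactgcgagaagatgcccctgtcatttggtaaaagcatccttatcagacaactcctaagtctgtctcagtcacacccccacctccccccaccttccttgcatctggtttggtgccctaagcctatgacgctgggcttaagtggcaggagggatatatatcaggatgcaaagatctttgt
Arhgef2, chr3:88615893-88616142, plus strand, 250 bases before the start: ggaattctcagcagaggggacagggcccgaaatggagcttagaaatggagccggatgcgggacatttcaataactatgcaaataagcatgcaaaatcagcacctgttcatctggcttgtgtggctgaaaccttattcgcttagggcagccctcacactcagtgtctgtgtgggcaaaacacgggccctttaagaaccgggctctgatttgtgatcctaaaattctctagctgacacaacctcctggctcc
Serinc2, chr4:130275587-130275836, minus strand, 250 bases before the start: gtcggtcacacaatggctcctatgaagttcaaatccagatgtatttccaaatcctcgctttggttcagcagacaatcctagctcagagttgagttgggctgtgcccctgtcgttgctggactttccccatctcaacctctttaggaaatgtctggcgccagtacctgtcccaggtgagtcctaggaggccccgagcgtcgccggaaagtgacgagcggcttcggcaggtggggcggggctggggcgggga
Sema5a, chr15:32244563-32244812, plus strand, 250 bases before the start: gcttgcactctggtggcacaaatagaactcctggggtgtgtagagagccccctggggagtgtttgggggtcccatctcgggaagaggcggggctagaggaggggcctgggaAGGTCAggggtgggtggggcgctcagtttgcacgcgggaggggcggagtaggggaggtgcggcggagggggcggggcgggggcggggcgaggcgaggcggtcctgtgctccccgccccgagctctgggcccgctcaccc
Fitm1, chr14:55575424-55575673, plus strand, 250 bases before the start: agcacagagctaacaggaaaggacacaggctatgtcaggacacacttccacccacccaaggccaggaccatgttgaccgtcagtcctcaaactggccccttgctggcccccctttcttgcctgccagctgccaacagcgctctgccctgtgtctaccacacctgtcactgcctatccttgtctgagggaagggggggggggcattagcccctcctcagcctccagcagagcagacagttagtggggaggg
Bdh1, chr16:31428503-31428752, plus strand, 250 bases before the start: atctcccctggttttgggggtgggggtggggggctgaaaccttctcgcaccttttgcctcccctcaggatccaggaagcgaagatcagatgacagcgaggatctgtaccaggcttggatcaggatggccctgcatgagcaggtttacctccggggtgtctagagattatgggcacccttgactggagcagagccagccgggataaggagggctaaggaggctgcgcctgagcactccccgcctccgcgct
The intervals covered all 250 bases shown at Pde6h and Fitm1, 214 at Arhgef2, 191 at Serinc2, 180 at Bdh1 and 31 at Sema5a. Among these promoters, only that of Sema5a held a half-site, at base 112, outside the bases that its interval covered. Half-sites were counted over the 250 bases whether or not the interval covered them. Over all overlapped promoters, 10.8% of the DKO-only and 17.4% of the Cpt2 KO-only ones held it, against 14.0% of all 32851 promoters and 18.4% of those overlapped by intervals called in all 4 livers. The exact direct repeat of AGGTCA with a spacer of 1 base, the kind of site that PPARα and RXR prefer (either strand, and counted among the half-sites too), was found in 0 of the 277 and 0 of the 115, against 0.0335% of all promoters. The DKO-only promoters held a median of 12.0 CpG dinucleotides per 250 bases, the Cpt2 KO-only promoters 9.0 and all promoters 6.0.

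Pde6h, the inhibitory subunit of the cone photoreceptor phosphodiesterase, had its promoter called at folds of 12.7 and 14.2 in the DKO livers (mm10, chr6:136954257-136954873), and the promoter of Arhgef2, an exchange factor of small GTPases, was called at 11.3 and 15.3 (chr3:88615070-88616106). Neither was called in a WT liver, while Ppara KO replicate 2 had 6.32 at Pde6h and both Ppara KO livers had calls at Arhgef2 (7.94 and 5.69). At Serinc2, a membrane protein linked to serine incorporation into lipids, the Cpt2 KO livers had 11.8 and 12.1 (chr4:130275646-130276365). The WT livers had 9.01 and 10.4 there, and neither Ppara KO liver had a call. Sema5a, a semaphorin of axon guidance, had 10.5 and 13.0 in the Cpt2 KO livers (chr15:32244782-32246162), 11.7 and 11.2 in the WT livers and 8.7 in Ppara KO replicate 1. Fitm1, which helps form lipid droplets, was called at 6.9 and 8.8 in the Cpt2 KO livers and at 6.17 and 5.2 in the WT livers (chr14:55575219-55575980). Bdh1, the mitochondrial hydroxybutyrate dehydrogenase of ketone body metabolism, was called at 3.11 and 8.14 in the Cpt2 KO livers (chr16:31428573-31430392).

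The 4 libraries held 62452 to 72151 H3K4me1 peaks covering 38.8 to 53.5 Mb, with median folds from 5.89 to 6.13. The depth in reads is unknown. Cpt2 KO replicate 2 stood apart from the other 3: 17163 intervals were called only in it, against 2931 to 6537 in each other library alone, and 8872 were called in the other 3 and not in it. Its smallest peak was 196 bases wide, against 210 to 221 in the others, and for this reason counts are also given without it. The sample numbers in the peak names run in 1 series for Ppara-null and another for Ppara-intact animals, so that whatever the series stands for cannot be told apart from the Ppara state. Hepatocyte markers carried H3K4me1 intervals at 9 of 10 genes, with 45 intervals called in all 4 livers, whereas markers of Kupffer cells had intervals at 2 of 10 genes, of stellate cells at 4 of 10 (0 called in all 4), of cholangiocytes at 5 of 9, of lymphocytes at 3 of 10 and of endothelial cells at 9 of 10. In whole tissue, fewer cells of a type and less mark per cell cannot be told apart.

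The targeted genes were read before the comparison. Over Ppara (chr15:85734910-85806851) and 6000 bases to either side lay 37 intervals, of which 4 were Cpt2 KO-only and 0 DKO-only. Of the 15 called in all 4 livers, both DKO livers lay below both Cpt2 KO livers at 7 and above them at 0, against 17.7% and 18.8% of all intervals called in all 4. Inside the gene, an interval at 85745937 to 85748334 had folds of 12.8 and 13.0 in the Cpt2 KO livers and of 7.67 and 6.67 in the DKO livers. Beyond its end, in the body of the neighbouring gene Cdpf1, an interval at 85808263 to 85809598 had 6.17 and 9.99 in the Cpt2 KO livers and no call in the DKO livers. Ppara therefore kept H3K4me1 calls along the gene in the DKO livers, and histone peaks do not report whether the protein was lost. At Cpt2 (chr4:107903982-107923589), deleted in both groups, the 1 interval inside the gene that was called in all 4 livers had 5.71 and 5.64 in the Cpt2 KO livers and 4.58 and 6.54 in the DKO livers, which overlap. An interval just outside the gene (107901656 to 107903136) was called only in the Cpt2 KO livers, at 5.74 and 9.58.

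DKO-only and Cpt2 KO-only intervals differed in where they lay. The middle of 14.0% of DKO-only intervals was within 1000 bases of a transcription start, against 5.79% of Cpt2 KO-only intervals, 7.13% of those called in all 4 livers and 8.86% of all. Beside this, 9.88% and 10.6% of all calls lay near a start in the DKO libraries, and 8.63% and 8.08% in the Cpt2 KO libraries; the part of this library difference in the result was not tested. Gene bodies held 49.7% of DKO-only and 68.8% of Cpt2 KO-only intervals, against 67.1% of all. Median widths were 479 and 759 bases, against 1634 for intervals called in all 4 and 518 for all intervals. The lower fold of the 2 livers had a median of 5.07 in DKO-only and 5.3 in Cpt2 KO-only intervals. For intervals called in all 4 the lowest of the 4 folds had a median of 5.6. Over all intervals the lowest fold of whichever of the 4 libraries had a call had a median of 5.3. The last 2 medians are not like for like with the first 2, since a minimum over more libraries tends to be lower. The nearest gene was within 50000 bases for 3278 DKO-only intervals (2495 genes) and for 2731 Cpt2 KO-only intervals (1891 genes). With 2 livers against 2 an exact permutation test cannot go below p = 0.333, and the counts carry no test. A set that needs fewer libraries is larger by construction: without Cpt2 KO replicate 1, Cpt2 KO replicate 2, DKO replicate 1 and DKO replicate 2 in turn, the DKO-only count was 12607, 5840, 10272 and 6666, and the Cpt2 KO-only count 20117, 8109, 3996 and 4901.

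The strongest DKO-only intervals, ranked by the lower fold of the 2 livers, lay near Slc8a1, Grin2b, Elfn1, Pde6h, Arhgef2, Tbcel, Tgfb2, Rad51b, Csnk1e and Aldh16a1. The first lay inside Slc8a1, the sodium-calcium exchanger, with folds of 15.8 and 15.3 in the DKO livers (chr17:81375467-81379625). It was also called in both Ppara KO livers (8.0 and 9.91) and in 1 WT liver (5.73). Inside Grin2b, an NMDA receptor subunit, the DKO livers had 15.1 and 18.4 (chr6:136012700-136013835) and the Ppara KO livers 7.67 and 10.9. Inside Elfn1, a synaptic adhesion protein, the DKO livers had 13.8 and 16.0 (chr5:139937716-139939724) and the Ppara KO livers 7.57 and 7.71. Neither Grin2b nor Elfn1 had a WT call at that interval. An interval 41238 bases from Tgfb2, a transforming growth factor, had 11.3 and 12.0 in the DKO livers and 7.11 and 10.4 in the Ppara KO livers (chr1:186581311-186581788). All 10 were called in at least 1 Ppara KO liver, and 9 of them in no WT liver. Of all DKO-only intervals, 26.4% and 56.7% were called in the Ppara KO livers and 12.4% and 11.9% in the WT livers. Of all consensus intervals these shares were 48.9% and 45.0%, and 47.2% and 49.3%. H3K27ac over the places of the 10 was called in both DKO livers for 9 of them, Tbcel being the exception. That share was not counted over all intervals, and 51.2% of DKO-only intervals overlapped an H3K27ac interval of any library, against 51.8% of all. The Grin2b interval had H3K27ac folds of 23.3 and 29.7 in the DKO livers and no call in the Cpt2 KO livers. Several of these genes are best known from neurons or photoreceptors; an interval is named here by the nearest gene, which need not be the gene it acts on.

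The strongest Cpt2 KO-only intervals lay near Trarg1, Sema5b, Nt5m, Tns1, Cops7b, Pik3c2g, Gpr157, Prox2, Lipg and Fam120a. An interval 10452 bases from Trarg1, a regulator of glucose transporter trafficking, had folds of 19.6 and 18.2 in the Cpt2 KO livers (chr11:76708290-76709943). The WT livers had 13.4 and 19.2 there, and neither Ppara KO liver had a call. H3K27ac at this place fell from 53.9 and 28.7 in the Cpt2 KO livers to 7.37 and 11.7 in the DKO livers, a log2 difference of -2.18 (SE 0.27, adjusted p = 0.00637 with limma). Sema5b, a semaphorin, had 17.0 and 20.4 in the Cpt2 KO livers and 21.2 and 14.8 in the WT livers (chr16:35631234-35636426). Pik3c2g, a lipid kinase of the liver, had 28.5 and 15.2 in the Cpt2 KO livers and 12.6 and 13.4 in the WT livers (chr6:139901143-139902551). Nt5m, a mitochondrial nucleotidase, had an interval 17969 bases away with 19.6 and 16.6 in the Cpt2 KO livers and 15.3 and 12.2 in the WT livers (chr11:59893168-59895837). Lipg, the endothelial lipase, had 13.5 and 14.3 inside the gene in the Cpt2 KO livers and 11.3 and 8.5 in the WT livers. All 10 were called in both WT livers, and 3 of them (Tns1, Gpr157 and Lipg) also in 1 Ppara KO liver. Of all Cpt2 KO-only intervals, 63.6% and 61.9% were called in the WT livers and 38.6% and 20.6% in the Ppara KO livers. Of all consensus intervals these shares were 47.2% and 49.3%, and 48.9% and 45.0%. The lack of a DKO call at the 10 intervals is part of how they were chosen.

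**Figure D1:**
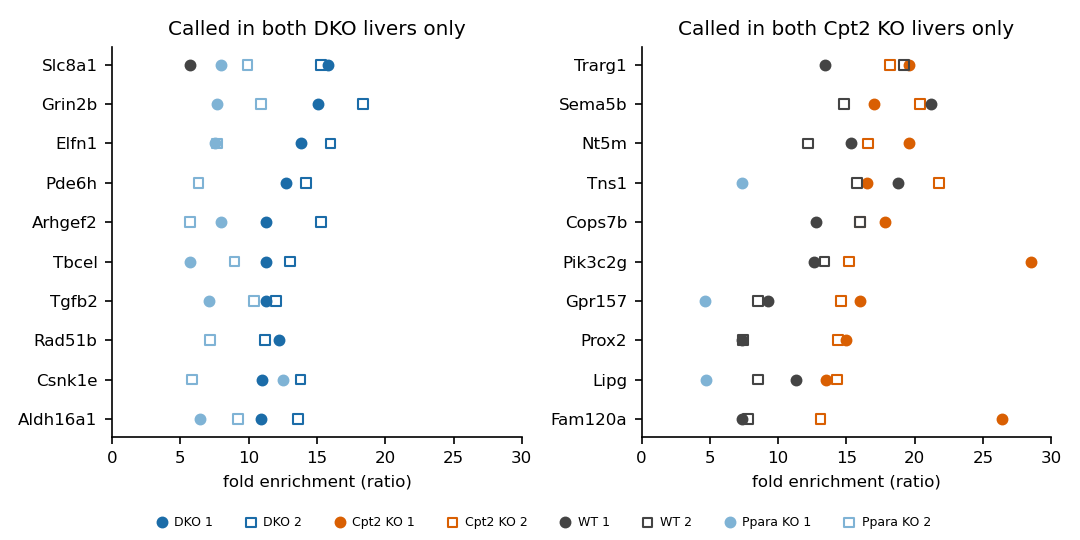
Fold enrichment (x axis, ratio) of the 10 strongest DKO-only intervals (left) and the 10 strongest Cpt2 KO-only intervals (right), by nearest gene, in each H3K4me1 library that called them; a missing point is a library with no call. Each point is 1 liver. Apart from 1 WT point at Slc8a1, WT livers were called only at the Cpt2 KO-only genes, and Ppara KO livers at all DKO-only genes and at Tns1, Gpr157 and Lipg, for example 13.4 and 19.2 for WT at Trarg1 and 7.67 and 10.9 for Ppara KO at Grin2b.

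Some genes held several one-group intervals, where 3.63% of all intervals were DKO-only and 2.87% Cpt2 KO-only. Rad51b, a recombination repair gene with a long body, had 13 DKO-only intervals of 78, Spon1, an extracellular matrix protein, 8 of 15, Cacna1c, a calcium channel subunit, 7 of 16, and Gabbr2, a GABA receptor subunit, 7 of 34. Gpt2, the mitochondrial alanine aminotransferase, had 7 DKO-only intervals of 27, all between 85507992 and 85521399 on chromosome 8; 4 were also called in Ppara KO replicate 1, 6 in replicate 2 and 0 in WT. At Spon1 and Cacna1c no WT liver had a call at any of these intervals either, while Ppara KO livers called 5 and 4 of them. Among Cpt2 KO-only intervals, Siah1a, a ubiquitin ligase, had 9 of 26, Mtus1 8 of 71, Chn2 7 of 60 and Slc22a5, the carnitine transporter of the plasma membrane, 7 of 32. WT livers called 6 of the 7 at Slc22a5, Ppara KO replicate 1 called 5 and replicate 2 called 0. At least 1 WT liver called 4 of the 9 at Siah1a, 6 of the 8 at Mtus1 and all 7 at Chn2. At least 1 Ppara KO liver called 3, 7 and 5 of them in that order. At Mtus1 the WT livers called 6 and 5, Ppara KO replicate 1 called 6 and replicate 2 called 2, so that the Ppara KO livers disagreed. Some of the genes also had intervals of the other kind. Rad51b and Gpt2 had 1 Cpt2 KO-only interval each, Mtus1 and Slc22a5 1 DKO-only interval each, and Chn2 2.

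The WT and Ppara KO livers were not used to choose the intervals. DKO-only intervals were called in 12.4% and 11.9% of cases in the WT livers and in 26.4% and 56.7% in the Ppara KO livers, where all intervals had 47.2% and 49.3% (WT) and 48.9% and 45.0% (Ppara KO). Cpt2 KO-only intervals were called in 63.6% and 61.9% of cases in the WT livers and in 38.6% and 20.6% in the Ppara KO livers. Both sets thus lay higher in the genotype that shared their Ppara state, in every one of the 4 pairings of a WT with a Ppara KO library. The Ppara KO livers differed from each other by more than the WT livers did. Called in both Ppara KO livers and neither WT liver were 397 DKO-only intervals (10.6%) and 30 Cpt2 KO-only ones (1.02%), against 3.5% of all. Called in both WT livers and neither Ppara KO liver were 11 DKO-only intervals (0.295%) and 622 Cpt2 KO-only ones (21.1%), against 4.89% of all. Smallest peak widths of the WT libraries (199 bases in both) and of Ppara KO replicate 1 (200) are nearly equal, so that replicate alone was also set against both WT livers: 15.4% of DKO-only intervals were called in it and in neither WT liver, against 10.0% of all, and 24.0% of Cpt2 KO-only intervals were called in both WT livers and not in it, against 6.22% of all. Choosing the intervals without Cpt2 KO replicate 2 gave 33.9% and 35.6% in WT and 46.8% and 61.7% in Ppara KO for the DKO set, and 28.8% and 26.8% in WT and 17.9% and 18.0% in Ppara KO for the Cpt2 KO set, the same order with smaller gaps. That choice was made after the data were seen.

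**Figure D2:**
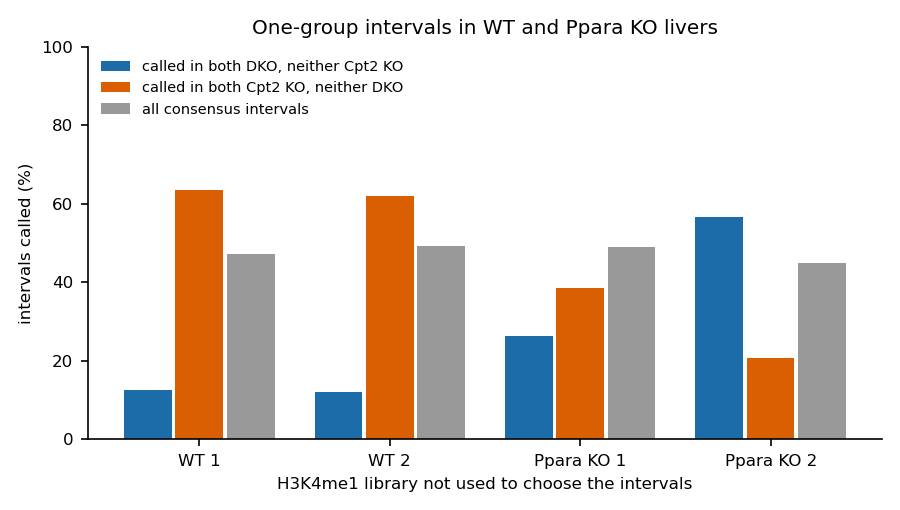
Share of DKO-only, Cpt2 KO-only and all consensus intervals (y axis, percent) called in each of the 4 H3K4me1 libraries that did not choose them (x axis). The Cpt2 KO-only bars stand above the DKO-only bars in both WT livers (63.6% against 12.4% in replicate 1) and in Ppara KO replicate 1 (38.6% against 26.4%), and below them in Ppara KO replicate 2 (20.6% against 56.7%).

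H3K27ac gave a second readout from libraries whose peak names carry the same 4 sample numbers as those of H3K4me1. Of its 65776 consensus intervals, 4.57% were called in both DKO and neither Cpt2 KO liver and 4.11% the other way. Of DKO-only H3K4me1 intervals, 335 (8.97%) overlapped an H3K27ac interval that was itself called in both DKO and neither Cpt2 KO liver, against 1.95% of all H3K4me1 intervals, and 6 overlapped one called the other way. Of Cpt2 KO-only intervals, 512 (17.3%) overlapped an H3K27ac interval called in both Cpt2 KO and neither DKO liver, against 2.41% of all, and 17 one called the other way. Among all 25533 H3K27ac intervals called in all 4 livers, 175 were higher in DKO (0.685%) and 373 lower (1.46%) by limma at adjusted p under 0.05. Of the 454 tested H3K27ac intervals at Cpt2 KO-only H3K4me1 intervals, 33 were lower (7.27%), and of the 918 at DKO-only intervals 15 were higher (1.63%), against 1.75% and 0.838% of those at any H3K4me1 interval. Without centring the 2 H3K27ac counts were 324 and 349, with a median difference of 0.10 on the log2 scale. Without Cpt2 KO replicate 1, Cpt2 KO replicate 2 and DKO replicate 2 in turn, 135, 114 and 200 H3K27ac intervals were lower, and 126, 64 and 42 higher.

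The gene lists showed where the one-group intervals gathered. Near the genes of peroxisomal fatty acid oxidation, 27 of 159 intervals were Cpt2 KO-only (17.0%) and 2 DKO-only (1.26%), against 2.87% and 3.44% of the intervals near any gene. Mitochondrial fatty acid oxidation had 15 of 94 Cpt2 KO-only (16.0%), the mixed list of vanins and further PPARα target genes 15 of 111 (13.5%), the Cyp4a fatty acid ω-hydroxylases 5 of 38 (13.2%), the acyl-CoA thioesterases 7 of 60 (11.7%), fatty acid uptake 12 of 113 (10.6%), the carnitine shuttle 10 of 97 (10.3%), ketone body synthesis 10 of 103 (9.71%) and lipid droplet proteins 9 of 119 (7.56%). DKO-only shares in these lists ran from 0.0% to 5.83%, the highest being ketone body synthesis (6 of 103). The integrated stress response had 5 of 54 Cpt2 KO-only (9.26%) and 3 DKO-only (5.56%). Many of these genes were chosen for the lists because they are known PPARα targets, and with earlier results of these data known. Without Cpt2 KO replicate 2, 31.4% of the peroxisomal, 24.5% of the mitochondrial and 47.4% of the Cyp4a intervals were called in Cpt2 KO replicate 1 and neither DKO liver, against 7.49% near any gene. Other lists stood closer to that share. Fatty acid uptake had 20.4%, the vanin list 17.1%, the thioesterases 16.7% and the integrated stress response 16.7%. Ketone body synthesis had 13.6%, the carnitine shuttle 13.4% and lipid droplet proteins 11.8%. WT livers called 20 and 22 of the 27 peroxisomal Cpt2 KO-only intervals and 13 and 12 of the 15 mitochondrial ones, and Ppara KO livers 11 and 3, and 5 and 3.

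**Figure D3:**
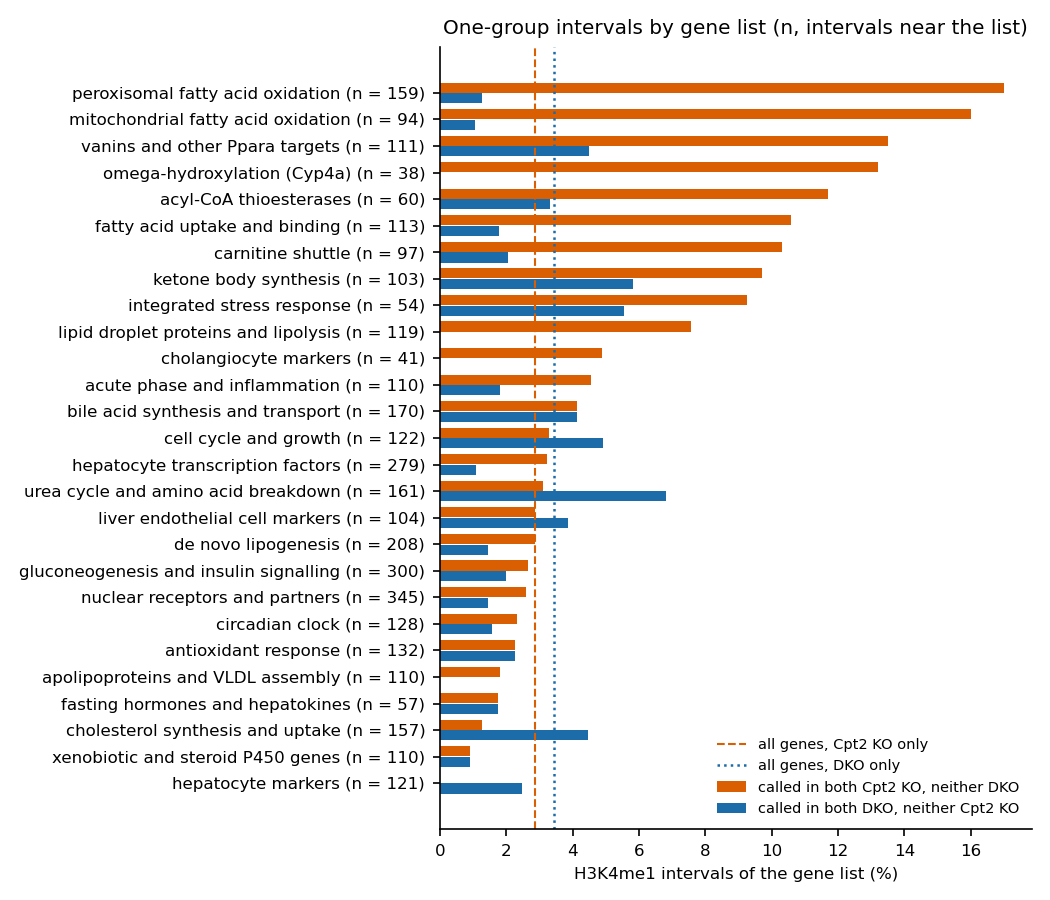
Share of the H3K4me1 intervals near each gene list (y axis, with the number of intervals) that were Cpt2 KO-only or DKO-only (x axis, percent), for the 27 lists with at least 30 intervals, without the list of the targeted genes; dashed and dotted lines give the shares near any gene, 2.87% and 3.44%. Lists of fatty acid metabolism stand at the top, up to 17.0%, and the urea cycle list has the longest DKO-only bar, at 6.83%.

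In peroxisomal oxidation, 11 of 15 genes had a Cpt2 KO-only interval. Hsd17b4, the bifunctional enzyme of that pathway, had 5 of 11, the strongest at folds of 11.2 and 14.9 in the Cpt2 KO livers (chr18:50134316-50136077), where WT had 8.29 and 7.14 and Ppara KO replicate 1 had 8.69. H3K27ac over it fell from 46.3 and 42.1 to 13.5 and 11.2 (log2 difference -1.94, SE 0.18, adjusted p = 0.00309 with limma). An adjacent interval of Hsd17b4 did not share this direction in H3K4me1, at 5.9 and 6.0 in the Cpt2 KO livers and 7.0 and 6.85 in the DKO livers. Abcd3, a peroxisomal acyl-CoA transporter, and Slc27a2, a very long-chain acyl-CoA synthetase, each had 5 Cpt2 KO-only intervals. The strongest of Slc27a2, 14564 bases away, had 10.5 and 9.33 (chr2:126538024-126538897), and was also called in all WT and Ppara KO livers, between 6.14 and 13.8. Ehhadh, the other bifunctional enzyme, had 3, the strongest at 8.74 and 9.29 (chr16:21791836-21793190). Of the 29 H3K27ac intervals tested near the list, 10 passed as lower in DKO (34.5%, against 1.46% of all).

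Mitochondrial oxidation had Cpt2 KO-only intervals at 10 of 13 genes. Hadhb, a subunit of the trifunctional protein, had 4 of 11. Its strongest shared interval (chr5:30167733-30171555) had folds of 11.0 and 11.8 in the Cpt2 KO livers and of 6.0 and 5.97 in the DKO livers, and likewise 12.5 and 11.4 in WT and 6.52 and 5.64 in Ppara KO. Hadh, the short-chain hydroxyacyl-CoA dehydrogenase, had an interval (chr3:131245546-131252057) at 9.61 and 13.9 against 4.06 and 5.52, a log2 difference of -1.30 (SE 0.32, adjusted p = 0.375 with limma). At both of these intervals the groups did not overlap. The other interval of Hadhb called in all 4 livers differed by 0.03 and 0.63 on the log2 scale in the 2 pairs of livers, in the opposite direction. Acaa2, the mitochondrial thiolase, had overlapping groups at its strongest shared interval, with 6.66 and 8.63 in the Cpt2 KO livers and 5.78 and 7.92 in the DKO livers.

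Among the Cyp4a genes, whose near-identical copies may share reads, Cyp4a10 had 4 Cpt2 KO-only intervals and Cyp4a31 1. At Cyp4a32 an interval 2881 bases away (chr4:115595716-115600376) had H3K4me1 folds of 19.2 and 13.4 in the Cpt2 KO livers and of 9.85 and 8.49 in the DKO livers. Its H3K27ac fell from 48.3 and 37.7 to 8.12 and 8.52 (log2 difference -2.46, SE 0.19, adjusted p = 0.00237 with limma). H3K4me1 differed less there, by -0.82 (SE 0.28, adjusted p = 0.574 with limma). Of the 4 H3K27ac intervals tested near this list, 3 passed as lower. The thioesterase list, in which Acot1 to Acot6 are similar neighbours, had 7 Cpt2 KO-only intervals, 3 of them at Acot1, and 2 DKO-only ones, at Acot3 and Acot8. Acot2 had 13.3 and 8.47 against 6.25 and 6.75 at its strongest shared interval (chr12:83999405-83999930).

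Genes of the carnitine shuttle were mixed. Crat, carnitine acetyltransferase, had no one-group interval but folds of 13.1 and 18.1 in the Cpt2 KO livers and of 6.67 and 7.38 in the DKO livers inside the gene (chr2:30406591-30409362, log2 difference -1.14, SE 0.29, adjusted p = 0.382 with limma). Cpt1a, the entry enzyme of mitochondrial oxidation, had 11.1 and 17.5 against 9.18 and 8.6 at its strongest interval (chr19:3333605-3346775) and 7.85 and 5.0 against 11.0 and 8.42 at another, so that its intervals went both ways. Acsl1, an acyl-CoA synthetase, had 13.9 and 10.3 against 13.3 and 10.6, which overlap.

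In uptake, storage and signalling, Cd36, a fatty acid transporter, had 3 Cpt2 KO-only intervals, 1 of them at 12.8 and 7.98 inside the gene (chr5:17879890-17882300), where H3K27ac was called at 19.2 and 23.5 in the Cpt2 KO livers and not in the DKO livers. Plin2, a lipid droplet coat protein, had 3 weak Cpt2 KO-only intervals, while its strongest interval overlapped between groups (13.4 and 12.0 against 12.2 and 14.3). The list of fasting hormones and hepatokines had 1 Cpt2 KO-only and 1 DKO-only interval among 57. Without Cpt2 KO replicate 2 its calls leaned to Cpt2 KO. Then 8 intervals (14.0%) were called in Cpt2 KO replicate 1 and neither DKO liver, against 7.49% near any gene. The other way, 1 interval (1.75%) was called in both DKO livers and not in Cpt2 KO replicate 1, against 5.57%. In folds the list did not lean to Cpt2 KO. DKO lay above at 3 and below at 1 of the 15 intervals called in all 4 livers, and the median log2 difference was 0.16. Of 11 H3K27ac intervals, 0 passed as lower with limma. The 1 interval with DKO below belonged to Fgf21. Fgf21, the fasting hormone of the liver, had 1 strong interval 314 bases from its start (chr7:45613816-45617793), with 18.6 and 13.4 in the Cpt2 KO livers, 7.05 and 7.85 in the DKO livers, 10.0 and 8.5 in WT and 5.8 and 5.4 in Ppara KO. The DKO livers lay below the Cpt2 KO livers there, with a log2 difference of -1.09 (SE 0.28, adjusted p = 0.387 with limma). H3K27ac at this interval was called in both Cpt2 KO livers and in no DKO liver. Over the 2 Fgf21 intervals called in all 4 livers the median log2 difference was -0.36, the other interval going the opposite way. Aldh3a2, a fatty aldehyde dehydrogenase, had 15.6 and 17.0 against 8.2 and 7.26 (chr11:61236274-61238249), and its H3K27ac fell by 1.49 on the log2 scale (SE 0.26, adjusted p = 0.0228 with limma). Pdk4, the kinase that blocks pyruvate dehydrogenase, had 3 DKO-only and 2 Cpt2 KO-only intervals, the strongest DKO-only one at 9.2 and 7.29 (chr6:5485847-5487451) and also called in all 4 WT and Ppara KO livers. Another interval of Pdk4, called in all 4 livers (chr6:5507607-5512328), had 11.4 and 11.4 in the Cpt2 KO livers and 6.01 and 6.83 in the DKO livers.

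**Figure D4:**
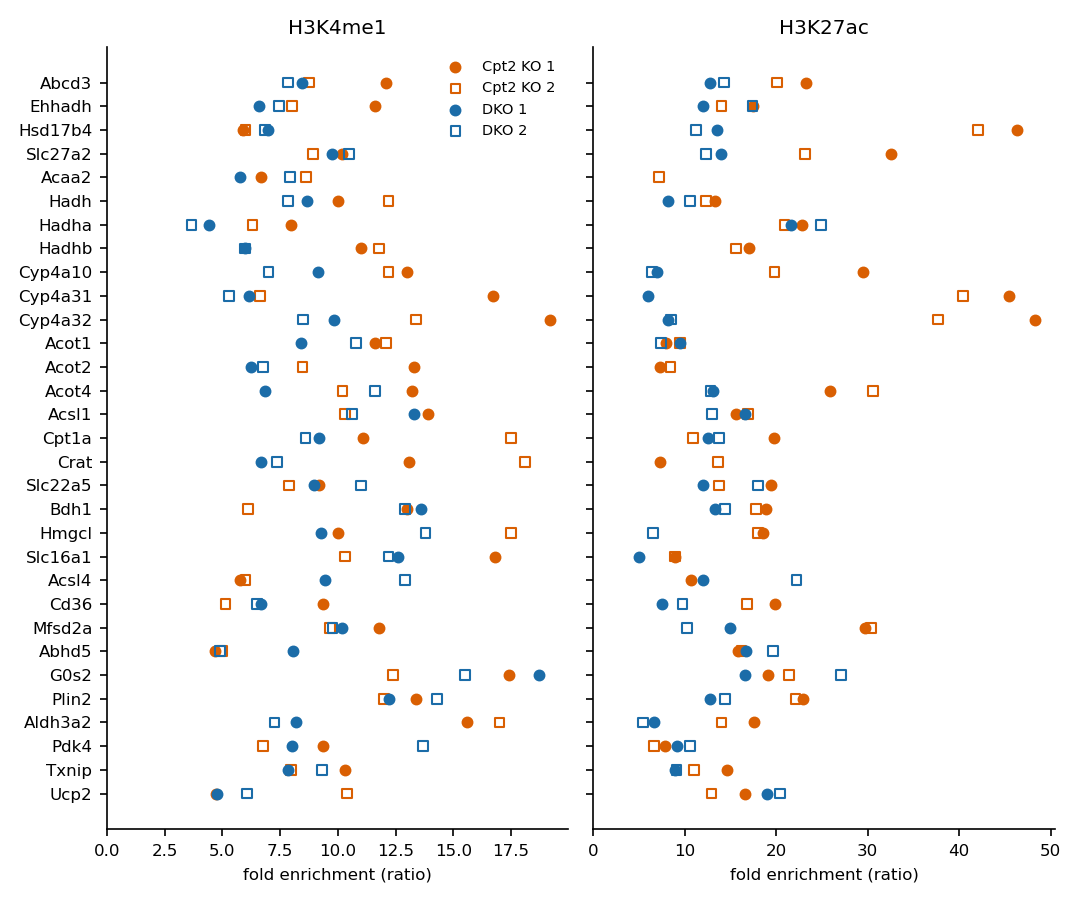
Fold enrichment (x axis, ratio) of H3K4me1 (left) and H3K27ac (right) at the strongest H3K4me1 interval called in all 4 livers near each named gene of the fatty acid lists; each point is 1 liver and a missing point is a library with no call. In H3K4me1 both DKO points lie below both Cpt2 KO points in 13 genes, such as Hadhb (6.0 and 5.97 against 11.0 and 11.8), and not in 18. The count is of folds as plotted, without centring. On folds centred on the library median, 17.7% of all intervals called in all 4 livers had DKO below. The genes were named partly for their differences, which sets the count of 13 in part. Not every gene that the naming rule selected is drawn.

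The remaining lists had smaller shares of Cpt2 KO-only intervals and no common direction. Urea cycle and amino acid genes had 11 of 161 DKO-only (6.83%), 6 of them at Ass1, argininosuccinate synthase. These 11 differed from most DKO-only intervals in that WT livers called 9 and 4 of them, and Ppara KO livers 4 and 11. Without Cpt2 KO replicate 2 the list did not lean to DKO. Then 18 of the 161 (11.2%) were called in Cpt2 KO replicate 1 and neither DKO liver, against 7.49% near any gene. The other way, 12 (7.45%) were called in both DKO livers and not in Cpt2 KO replicate 1, against 5.57%. An interval of Ass1 called in all 4 livers had 3.3 and 3.75 in the Cpt2 KO livers and 6.68 and 7.11 in the DKO livers (chr2:31481712-31487320). Glul, glutamine synthetase of the same list, had 3 Cpt2 KO-only intervals. Cholesterol genes had 7 of 157 DKO-only (4.46%), 3 of them at Insig2 and 2 at Sqle, and at 16 of their 42 intervals called in all 4 livers both DKO livers lay above both Cpt2 KO livers (38.1%, against 18.8% of all). The corresponding share was 34.2% for clock genes and 37.8% for hepatocyte markers. De novo lipogenesis had DKO above at 10.3% and below at 23.5% of 68 intervals, against 18.8% and 17.7% of all. Its median log2 difference was 0.0. Its 6 Cpt2 KO-only intervals (2.88%) and 3 DKO-only ones (1.44%) stood beside 2.87% and 3.44% near any gene. Within lipogenesis, Elovl6, a fatty acid elongase, had 2 DKO-only intervals and a shared one (chr3:129650154-129651624) at 10.3 and 12.0 in the DKO livers, 5.5 and 4.42 in the Cpt2 KO livers, 7.62 and 10.3 in Ppara KO and no call in WT. Pparg, the receptor related to PPARα, had 2 DKO-only intervals of 18, at 7.61 and 7.58 for the stronger (chr6:115381906-115382758). Ppargc1a, the coactivator of fasting genes, had 4 of 32. Esrrg, an orphan receptor, had 4 Cpt2 KO-only intervals of 17. The lists of these genes had no excess of one-group intervals. Nuclear receptors had 1.45% DKO-only and 2.61% Cpt2 KO-only, and gluconeogenesis 2.0% and 2.67%, against 3.44% and 2.87% near any gene. Xenobiotic P450 genes had 1 of each kind among 110 intervals, and hepatocyte transcription factors 9 Cpt2 KO-only and 3 DKO-only of 279.

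Among the other cell types, Spi1, a macrophage transcription factor, had 2 DKO-only intervals, and at another its H3K27ac fell from 31.2 and 28.8 to 9.99 and 5.17 (adjusted p = 0.0116 with limma), so that its intervals did not move 1 way. The 3 DKO-only intervals of the Kupffer cell list were among 10, those of the endothelial list 4 among 104 and of the lymphocyte list 1 among 14, against 3.44% near any gene, and stellate and cholangiocyte markers had 0. Cpt2 KO-only intervals numbered 3 of 104 for endothelial (2.88%) and 2 of 41 for cholangiocyte markers (4.88%), against 2.87% near any gene, and 0 for the other 3 lists. The defining Kupffer cell genes Clec4f and Timd4 had no interval. The part of cell composition in the results above was not tested.

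At the 24289 intervals called in all 4 livers, log2 folds centred on each library's median were compared with limma. No interval passed adjusted p under 0.05 in either direction; 1701 had an unadjusted p under 0.05, and the lowest adjusted p was 0.318. Both DKO livers lay above both Cpt2 KO livers at 4567 intervals (18.8%) and below them at 4308 (17.7%), and the differences of the same-numbered livers shared a sign at 52.6%. Without Cpt2 KO replicate 1, 536 intervals were higher and 409 lower, with a lone Cpt2 KO liver assumed to vary as the DKO livers do; without Cpt2 KO replicate 2 the counts were 0 and 0 and the lowest adjusted p was 0.0567. Both differences reached at least +0.5 on the log2 scale at 640 intervals and at most -0.5 at 650, and +1 or -1 at 34 and 52. In the WT and Ppara KO livers, not used in this choice, the Ppara KO mean was the higher at 80.5% of the 466 positive intervals also called there in all libraries, and the lower at 82.3% of the 538 negative ones, against 48.4% and 51.6% of all. Median log2 differences of Ppara KO from WT were 0.31 and -0.33. For the +1 and -1 sets the counts were 22 of 24 and 36 of 38. H3K27ac was tested at 371 intervals overlapping the positive set, of which 28 passed as higher (7.55%), and at 340 overlapping the negative set, of which 64 passed as lower (18.8%), against 0.838% and 1.75% of those at any H3K4me1 interval.

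**Figure D5:**
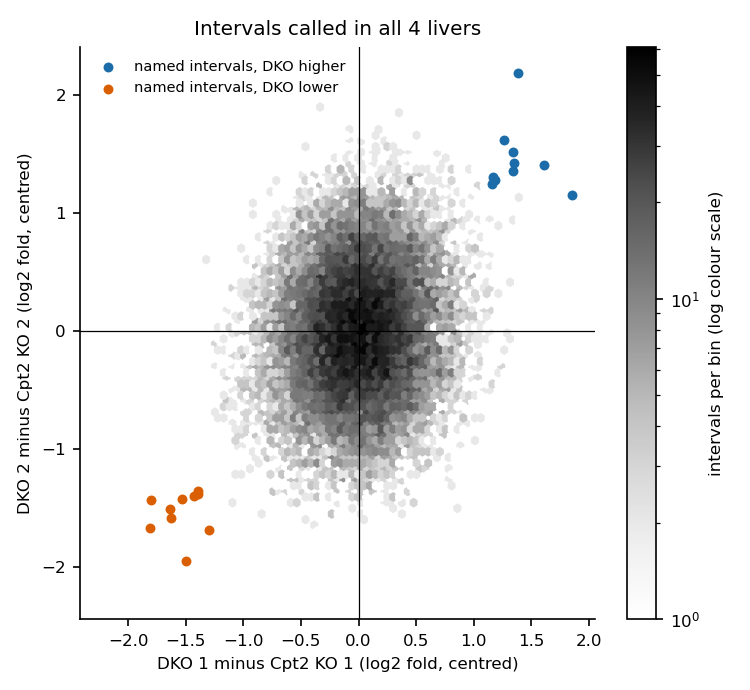
Centred log2 fold of DKO minus Cpt2 KO at the 24289 intervals called in all 4 livers, replicate 1 (x axis) against replicate 2 (y axis); shading gives intervals per bin on a log colour scale and coloured points the 10 named intervals in each direction, chosen by the values plotted. The cloud is centred near 0 with little tilt, and 52.6% of intervals share a sign.

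The largest differences on which both pairs of livers agreed are described without a test of their own, since these values chose them. DKO was higher near Cdc42se2, Csnk1e, Pdlim5, Map3k1, Arhgap26, Acmsd, Nek6, Fbxo42, Gsdmd and Egfr. Near Csnk1e, casein kinase 1 epsilon of the clock, 793 bases from the gene, the DKO livers had folds of 15.7 and 19.3 and the Cpt2 KO livers 6.26 and 4.02 (chr15:79416191-79417928); WT had 5.46 and 4.8 and Ppara KO 11.6 and 10.6. A DKO-only interval of Csnk1e, named above, lay next to it (chr15:79413569-79415248), at 11.0 and 13.8. Inside Acmsd, an enzyme of tryptophan breakdown that limits NAD synthesis, the DKO livers had 13.9 and 18.2 and the Cpt2 KO livers 6.03 and 5.65 (chr1:127754439-127755919). Neither WT liver had a call, Ppara KO had 9.23 and 12.3, and H3K27ac had 32.0 and 37.4 in the DKO livers and no call in the Cpt2 KO livers. Fbxo42, a ubiquitin ligase subunit, had 11.4 and 9.86 against 5.27 and 3.78 (chr4:141175802-141177532), and its H3K27ac rose by 1.69 on the log2 scale (SE 0.26, adjusted p = 0.0142 with limma). Of the 10 intervals, 8 had H3K27ac called in both DKO livers. That share was not counted over all intervals, and 89.4% of the intervals at +0.5 or more overlapped an H3K27ac interval of any library. Of the 4 tested for H3K27ac with limma only that of Fbxo42 passed (adjusted p = 0.0688 at Arhgap26, 0.211 at Nek6 and 0.372 at Egfr). Pdlim5 went the other way, with H3K27ac of 7.58 and 7.06 in the Cpt2 KO livers and 6.54 and no call in the DKO livers. Egfr, the epidermal growth factor receptor, had 17.3 and 8.0 against 5.0 and 3.4 at an interval 48962 bases from the gene, where WT (7.74 and 8.78) and Ppara KO (5.89 and 9.44) overlapped. Over the 14 Egfr intervals called in all 4 livers the median log2 difference was 0.08. WT and Ppara KO also overlapped at Nek6 (5.27 and 7.25 against 8.25 and 4.71) and Arhgap26 (6.0 and 4.75 against 5.0 and 9.77). At Pdlim5 the 1 WT call (5.4) lay between the Ppara KO folds (4.17 and 6.88).

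DKO was lower near Rhou, Gramd3, Irs2, Mical2, Slc52a2, Slc22a23, Avpr1b, Tenm3, Dnah3 and Nudt9. Near Irs2, an insulin receptor substrate induced by fasting, an interval 49127 bases away had 16.6 and 10.8 in the Cpt2 KO livers and 5.1 and 4.0 in the DKO livers (chr8:10934329-10936780), with 12.1 and 10.8 in WT and 9.44 and 8.5 in Ppara KO. It was not typical of the gene: over the 12 Irs2 intervals called in all 4 livers the median log2 difference was 0.08. Nudt9, an ADP-ribose pyrophosphatase, had 16.6 and 17.1 against 6.44 and 5.62 (chr5:104033781-104036031), with 11.0 and 13.4 in WT and 7.17 and 6.53 in Ppara KO. Slc22a23, an orphan solute carrier, had 16.8 and 14.5 against 5.57 and 5.71 (chr13:34227441-34228751), with 12.6 and 14.5 in WT and 10.0 and 9.89 in Ppara KO. Mical2, an actin-oxidising enzyme, differed from these: 11.5 and 13.3 against 3.9 and 3.64 (chr7:112352370-112354913), with no call in any WT or Ppara KO liver. Tenm3, a teneurin, had 9.57 and 7.91 against 3.5 and 3.2, and its H3K27ac fell from 18.2 and 22.1 to 6.6 and 6.91 (adjusted p = 0.0106 with limma). Replicate 1 of WT had 4.88 and of Ppara KO 5.65 at the Tenm3 interval, and replicate 2 of each had no call. At Dnah3, WT (5.91 and 6.36) and Ppara KO (4.8 and 6.88) overlapped. H3K27ac was called in at least 1 Cpt2 KO liver at all 10, and in no DKO liver at 7. These shares were not counted over all intervals, and 89.7% of the intervals at -0.5 or less overlapped an H3K27ac interval of any library. The log2 differences of the 20 intervals ran from -1.74 to 1.79, with adjusted p from 0.318 to 0.375 in limma.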

How the data were processed

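ChIP-seq for H3K4me1 and H3K27ac was read from peak lists and from 1 table of consensus intervals per mark, which the authors merged over all libraries of the mark. Per the submitters' processing notes, the tools were BWA and MACS2 2.1.0 and the build mm10. The deposited peak lists give each peak's fold enrichment, a ratio of signal over local background, and its -log10 q-value, in the narrowPeak layout. Peaks were called by the authors in each library, and read depth is unknown.

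The highest fold of the peaks that overlap an interval by at least 1 base was taken as its value. Folds were put on the log2 scale, centred on each library's median over intervals called in all 4 livers, and tested with limma 3.58.1 (R 4.3.3, trended variance, Benjamini-Hochberg adjustment over all intervals of a mark called in all 4 livers, adjusted p under 0.05). P-values measure the spread between 2 livers a group. The labels do not say that replicates are separate animals, though the peak names carry a different number for each, so the spread may be technical. Replicate numbers do not stand for a known pairing, and the fit reported has no block; same-numbered livers were subtracted only to find intervals on which both differences had 1 sign. The same-number correlation of deviations was 0.021 for H3K4me1 and 0.059 for H3K27ac, over 2 pairs, below what pairing requires.

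Each interval was assigned to the nearest of 21900 protein-coding genes of RefSeq GRCm38.p6 within 50000 bases. Starts were those of the promoter table, which matched 17492 genes. The named intervals were the 10 with the highest lower fold in each one-group set, the 5 genes with most such intervals, and the 10 in each direction with the largest smaller difference of the 2 replicate pairs. For each list, the genes with most one-group intervals and the largest differences were named. Members and lists were chosen with earlier results of these data known. Scripts were tested on simulated data. Tables were handled with Python 3.11.15, pandas 2.3.3 and numpy 2.4.6. The alternatives were other scalings, thresholds, overlaps, filters, a replicate block and each library left out. H3K9ac and input samples were not used. Some genes that the naming rule selected are not reported here.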

Additional observations from a re-analysis of the deposited data

How the results depend on the processing

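For H3K4me1, limma called 0 intervals higher and 0 lower also without centring, with quantile normalization, with the mean of overlapping peaks, with a 50% overlap, with -log10 q of at least 10 and with all 8 libraries in 1 fit. The replicate block gave 10.0 and 12.0, and filling uncalled libraries with the lowest fold, which tests 44944 intervals, gave 3685 and 2939. Leaving out 1 library gave 0 to 536 higher and 0 to 409 lower, with calls only without Cpt2 KO replicate 1. For H3K27ac, against 175 higher and 373 lower, no centring gave 324 higher, the mean of overlapping peaks 53.0 and 181, filled libraries 3179 and 3360, all 8 libraries 109 higher, and the replicate block 518 and 816. Leaving out 1 library gave 42.0 (without DKO replicate 2) to 126 higher and 114 (without Cpt2 KO replicate 2) to 334 lower. The causes were not tested. The replicate numbers do not pair the livers.

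DKO-only intervals numbered 5840 to 12607 and Cpt2 KO-only intervals 3996 to 20117 with 1 library left out. The highest value of each count came from leaving out Cpt2 KO replicate 1, and the lowest from leaving out Cpt2 KO replicate 2 and DKO replicate 1 respectively. Among DKO-only and Cpt2 KO-only counts, -log10 q of at least 10 gave 3482 and 2512, and a fold of at least 5 gave 3384 and 2739. Peak lists hold no signal below the calling threshold, and 2 livers a group limit every comparison.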
